A study of Mus musculus with 8 samples.

Results

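Whey and other secreted milk protein genes were followed here in sorted luminal cells of the mammary gland of the mouse. Luminal cells form the inner epithelial layer of ducts and alveoli and secrete the milk. The genes were Wap, Lalba, Lao1, Glycam1, Ltf, Trf, Spp1, Cel and Pigr, chosen by name, each read from the probe set of that symbol. A named probe set was used for 8 of these 9 genes, out of 19505 genes in the table, and Spp1 was not analysed here. The arrays came from luminal cells sorted from fresh glands of mice on day 15 of pregnancy, 4 arrays of control cells and 4 of cells labelled a3a6KO. The a3a6KO name refers to the integrin chains alpha 3 and alpha 6, which help to bind epithelial cells to laminin in the basement membrane. The sources used here do not state the strain, the age, the Cre line, the deleted parts of either gene or the genotype of the controls. The titles of the a3a6KO samples also carry the word Ctrl, so their group was read from the cell subtype label. The series design calls the samples biological replicates, without saying whether each came from 1 mouse or from a pool.

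Milk is built from caseins, which form micelles, and from whey, the soluble fraction. Whey proteins are made by alveolar luminal cells under prolactin, which acts through the transcription factor Stat5, together with glucocorticoid. The genes do not start together in mouse pregnancy. Casein genes such as Csn2 come on earlier, Wap follows, and Lalba, needed for lactose, comes on late, so that a gland in late pregnancy is still raising the later genes.

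The members have unlike roles. Wap encodes whey acidic protein, a main whey protein of mouse milk. Lalba encodes alpha-lactalbumin, the regulatory subunit of lactose synthase, and Glycam1 a mucin-like glycoprotein that is also secreted into milk. Trf encodes transferrin and Ltf lactoferrin, both iron-binding proteins. Lao1 encodes an L-amino acid oxidase that generates hydrogen peroxide, and Cel a lipase that needs bile salts. Pigr encodes the polymeric immunoglobulin receptor, which carries immunoglobulin A across the epithelium into milk.

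The arrays themselves set the following frame. Background on each array was taken as the 95th percentile of its intron control sets, which was 6.38 to 6.90 on the log2 scale. Of the 8 genes, Wap, Lalba, Lao1, Glycam1, Trf and Pigr exceeded it on all 8 arrays, Ltf on 2 and Cel on 1. The 7 luminal markers, Krt8, Krt18 and Epcam among them, exceeded it on all 8 arrays, so the labelled cell type had its markers. Of 10 basal markers, Krt14 and Acta2 did so too, as did the adipocyte marker Fabp4 (8.94 to 11.42). The 3 other adipocyte markers exceeded background on 0 arrays. The purity of the sorted cells was not tested. Itga6 was between 8.73 and 9.14 in control and between 3.65 and 8.21 in a3a6KO, with 2 of the a3a6KO arrays (3 and 4) at 8.21 and 7.85. Itga3 was between 5.37 and 7.27 in control and between 4.34 and 5.60 in a3a6KO. Whether the probe sets cover the deleted parts is unknown, so these levels do not settle how complete the deletions were. In sorted cells measured in bulk, fewer cells that express a gene and less RNA per cell cannot be told apart.

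All 8 measured genes had a lower mean in a3a6KO than in control, where 50.1% of all genes did, and the median of their differences (a3a6KO minus control) was -0.68 on the log2 scale, against -0.0025 over all genes. Among genes above background on every array, 47.1% of 1609 had a lower mean. Ltf, Lao1, Pigr, Lalba, Cel and Wap differed by -0.58 to -1.02, and Glycam1 and Trf by -0.18 and -0.04. None of the 8 passed the threshold in limma's test over all genes (adjusted p of 0.944 to 0.986 by the Benjamini-Hochberg method, threshold 0.05), and limma called 0 genes in all, or 0% of 19505. At an unadjusted limma p under 0.05, 5 of the 8 were lower (Pigr, Ltf, Lalba, Lao1 and Wap), where 2.73% of all genes were lower at that level and 5.13% differed in either direction. These genes were chosen with earlier results of the same data known, so their counts are a description.

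**Figure D1:**
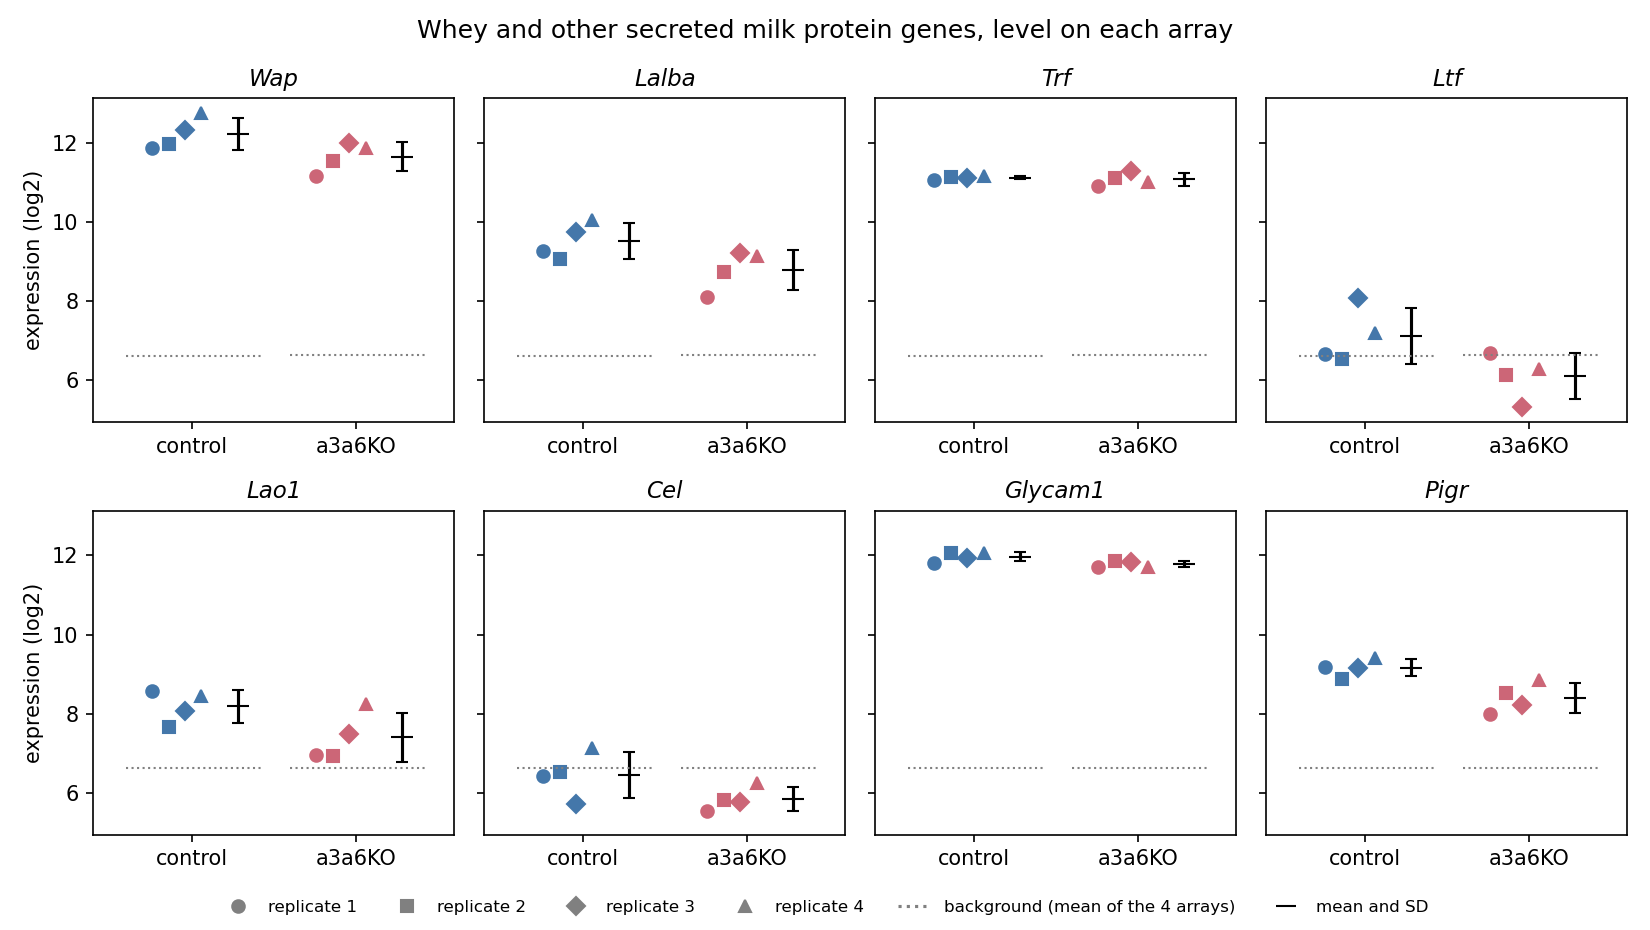
Log2 expression (vertical axis) of 8 secreted milk protein genes on the 4 control and 4 a3a6KO arrays. Symbols are single arrays by replicate number, the black mark is the mean with its SD, and the dotted line is the mean background of the group. Wap and Lalba spread widely in both groups, Trf and Glycam1 hardly at all, and Pigr is the gene whose groups do not overlap.

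Wap was near the top of each array's range and varied from array to array. Control 1 to 4 gave 11.86, 11.96, 12.33 and 12.76, and a3a6KO 1 to 4 gave 11.17, 11.55, 11.99 and 11.86. Control 4 was the highest array and a3a6KO 1 the lowest, and a3a6KO 3 lay above control 1 and 2, so the groups overlapped. Control averaged 12.23 ± 0.41 and a3a6KO 11.64 ± 0.37 (SD, n = 4 each), which is -0.58 in a3a6KO minus control (SE 0.258, 95% interval -1.17 to -0.0046), or 1.5-fold. The exact permutation test over samples, two-sided, gave p = 0.143, where the smallest p that 4 against 4 allows is 0.0286.

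Lalba ordered the arrays much as Wap did. It was at 9.26, 9.05, 9.75 and 10.05 in control and at 8.09, 8.72, 9.21 and 9.13 in a3a6KO. Controls 3 and 4 were highest and a3a6KO 1 and 2 lowest, with control 2 inside the range of a3a6KO. The means were 9.53 ± 0.46 and 8.79 ± 0.51 (SD, n = 4), a difference of -0.74 (SE 0.306, 95% interval -1.43 to -0.05; exact permutation p = 0.114), or 1.67-fold. The a3a6KO arrays lowest in Wap and Lalba were also those lowest in Itga6, at 5.95 and 3.65, both below background. With 4 such arrays, this relation was not tested.

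Across the 8 arrays, Wap and Lalba were each other's nearest pattern among 2773 genes above background on at least 4 arrays (Pearson r = 0.979, Spearman rho = 0.862). The relation held within the groups (r = 0.944 over the 4 controls and 0.993 over the 4 a3a6KO arrays) and without control 4 and a3a6KO 1, the arrays farthest from the median of Wap (r = 0.942). No p is given because the pair was picked as the highest of many. The next in likeness to both were Acsl4, which encodes an acyl-CoA synthetase (r = 0.961 with Wap and 0.934 with Lalba), and Mcl1, which encodes a survival factor of the Bcl2 family (r = 0.938 and 0.918). Wap had a weaker relation to Pigr (r = 0.792, and 0.586 on deviations from the group means) and to Csn2 (0.544 and 0.256). Lalba minus Wap, taken within each array, differed between the groups by -0.16, with overlapping groups.

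**Figure D2:**
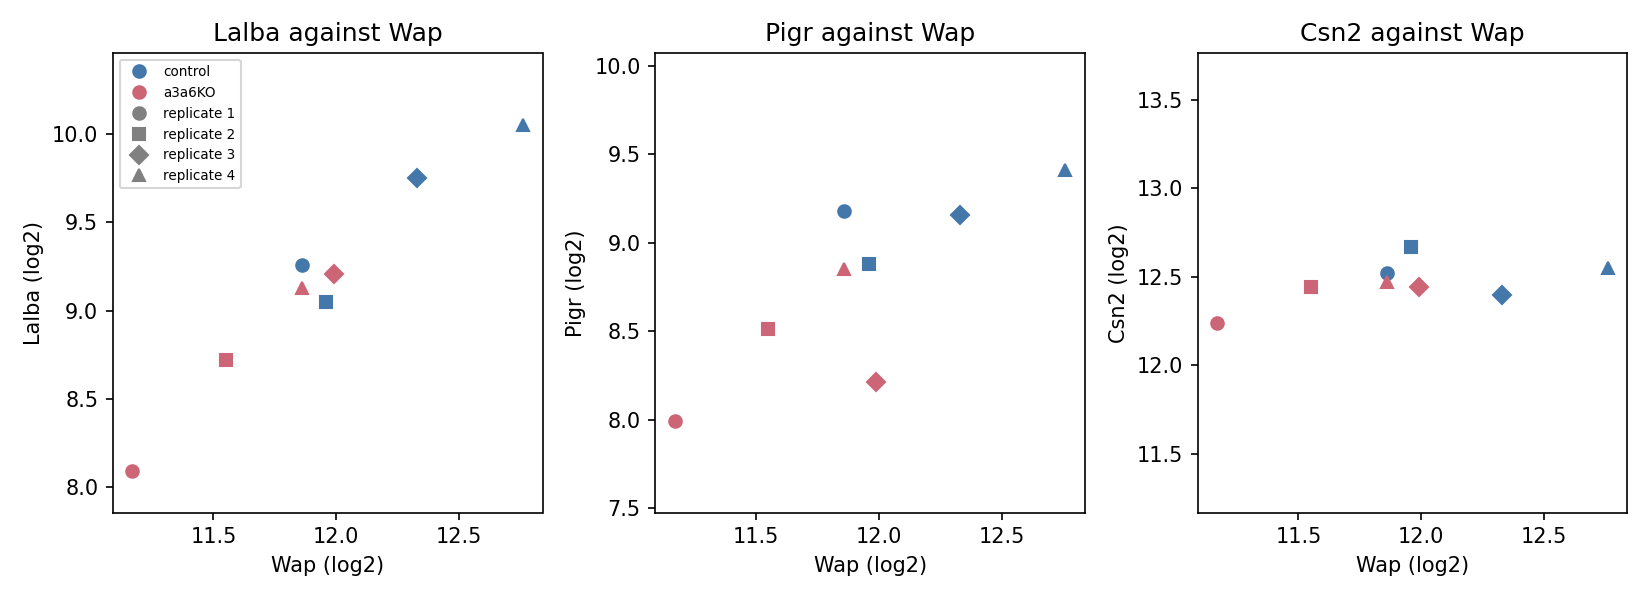
Lalba, Pigr and Csn2 (vertical axes, log2) against Wap (horizontal axis, log2), 1 point per array, coloured by group and shaped by replicate number, with vertical axes of equal length. Lalba falls on a line with Wap in both groups (r = 0.979), every control lies above every a3a6KO array in Pigr, and Csn2 spans 0.43.

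Pigr was the member whose groups did not overlap. Its values were 9.18, 8.88, 9.16 and 9.41 in control and 7.99, 8.51, 8.21 and 8.85 in a3a6KO. The lowest control, 8.88, stood just above the highest a3a6KO array, 8.85. The means were 9.16 ± 0.22 and 8.39 ± 0.37 (SD, n = 4), a difference of -0.77 (SE 0.219, 95% interval -1.26 to -0.27), or 1.70-fold, and the exact permutation test reached its smallest p (0.0286). Groups did not overlap in 1 of the 8 members, against 2.94% of all genes (1.56% lower in a3a6KO), and the limma adjusted p of Pigr was 0.944. Mfsd11 (r = 0.958), H2aj (r = 0.916) and Atxn7l3b (r = 0.894) were most like it over the 8 arrays. The J chain gene Jchain, whose product joins the immunoglobulins that Pigr carries, was at 2.24 to 2.54 and above background on 0 arrays.

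Lao1 was at 8.58, 7.66, 8.07 and 8.44 in control and at 6.95, 6.93, 7.48 and 8.25 in a3a6KO. All a3a6KO arrays but a3a6KO 4 lay below every control, and that array lay among the controls. Background was 6.76 on a3a6KO 1 and 6.66 on a3a6KO 2, close below the Lao1 values there, so the size of the difference is uncertain. The means were 8.19 ± 0.41 and 7.40 ± 0.62 (SD, n = 4), a difference of -0.78 (SE 0.328, 95% interval -1.52 to -0.05; exact permutation p = 0.114), or 1.72-fold. Its pattern was less like that of Wap (r = 0.703) or Lalba (r = 0.774) than that of Pigr (r = 0.858). The genes most like it were Nucb2, which encodes a calcium-binding protein (r = 0.967), Gabarap, of the autophagy machinery (r = 0.934), and Tlr2, a receptor for bacterial lipopeptides (r = 0.922).

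The iron-binding protein genes Trf and Ltf had mean differences of unlike size, with overlapping intervals, and no test compared them. Trf was at 11.07, 11.14, 11.11 and 11.15 in control and at 10.90, 11.11, 11.29 and 11.02 in a3a6KO. The a3a6KO arrays lay on both sides of the controls, and the difference was -0.04 (SE 0.15, 95% interval -0.38 to 0.30). Its interval excludes a fall as large as the mean difference of Wap or Lalba. It overlaps the intervals of both genes, so Trf was not shown to differ from them in its response. The sign of the small Trf difference turned without a3a6KO 1 (0.02). Tfrc, the receptor that takes up transferrin, differed by 0.26 (SE 0.214).

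Ltf was the most variable member. It was at 6.67, 6.52, 8.08 and 7.19 in control and at 6.69, 6.12, 5.31 and 6.27 in a3a6KO. Control 3 stood highest, and a3a6KO 1 lay above control 1 and 2. The difference of -1.02 (SE 0.39, exact permutation p = 0.0857) was measured near background, which Ltf exceeded on controls 3 and 4, so its size is uncertain and no fold is given. Control 3 was also the array highest in Ptprc, the common leukocyte antigen gene (7.07, with 3.15 to 4.84 on the other 7 arrays). The 4 other measured markers of lymphocytes and plasma cells exceeded background on 0 arrays. Control 3 was highest too in Cited1, a gene of hormone-sensing luminal cells (9.29). Cited1 was also at 8.59 on a3a6KO 4 and 7.69 on a3a6KO 1, where Ltf lay below background. The 4 other hormone-sensing markers exceeded background on 0 arrays. Neutrophils also make lactoferrin. Of their 6 measured markers, S100a8 exceeded background on 3 arrays (7.45 on control 2, 6.86 on control 4 and 7.65 on a3a6KO 3), and S100a9, Ngp, Camp, Mpo and Elane on 0 arrays. The mean neutrophil marker deviation of control 3 was -0.10. The part of these cells in the Ltf values was not tested.

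Cel was at 6.43, 6.53, 5.72 and 7.12 in control and at 5.53, 5.81, 5.77 and 6.25 in a3a6KO. It exceeded background on control 4 alone, so its difference of -0.61 (SE 0.293, exact permutation p = 0.114) lies mostly within background, and no fold is given. Without control 4 it was -0.39.

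Glycam1 was close to constant. It was at 11.81, 12.06, 11.94 and 12.05 in control and at 11.71, 11.86, 11.84 and 11.72 in a3a6KO. The lowest control lay between the a3a6KO arrays, and the difference was -0.18 (SE 0.146, 95% interval -0.51 to 0.15; exact permutation p = 0.0857), or 1.13-fold. All 8 values of Glycam1 fell within 0.35 and those of Trf within 0.39, where those of Lalba spanned 1.96 and those of Wap 1.59. Glycam1 stood 1.15 to 1.51 below the highest value of its array and Wap 0.44 to 2.05 below it. Array signals can compress near the top, and the part of compression in these spreads was not tested.

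**Figure D3:**
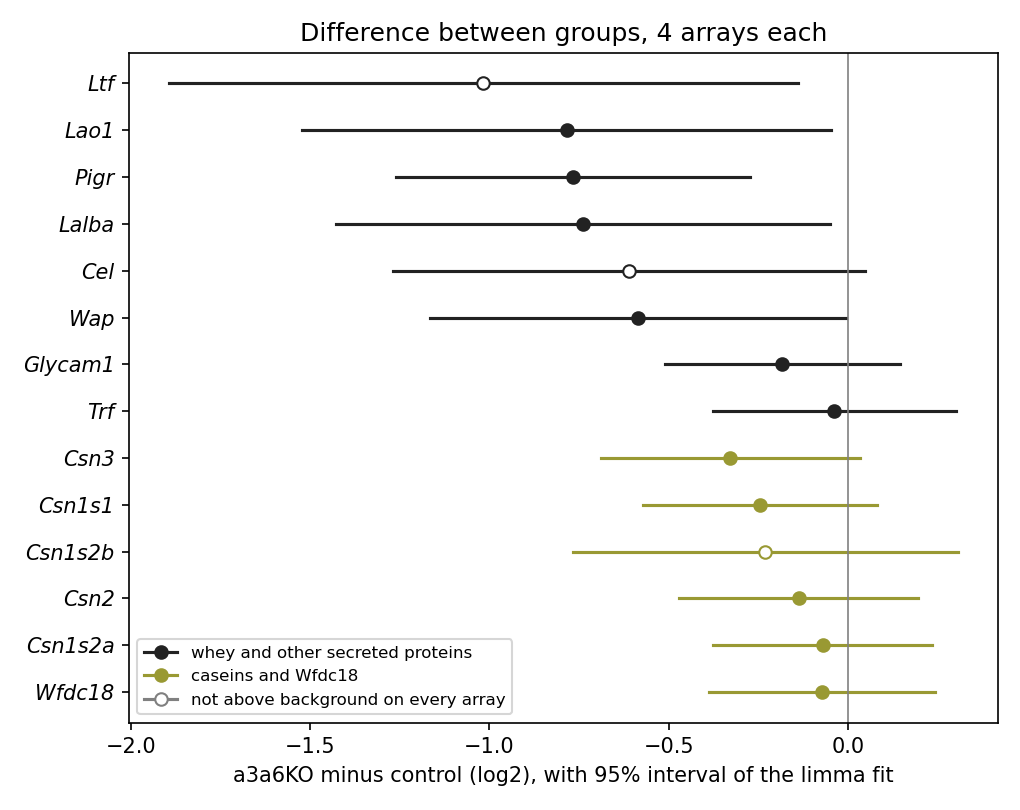
Difference between a3a6KO and control (horizontal axis, log2) with its 95% interval in the limma fit, for 8 whey and other secreted protein genes (black) and for the caseins and Wfdc18 (olive). Open circles mark genes not above background on every array. All 14 points lie below 0, those of Ltf, Lao1, Pigr, Lalba, Cel and Wap farthest, and none passed the threshold over all genes.

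The order of onset in pregnancy gave a second view. The earlier genes were Csn2, Csn1s1, Csn3 and Wfdc18, which encodes a small whey protein with a WAP domain. They differed by -0.14 (Csn2, SE 0.148), -0.24 (Csn1s1, SE 0.145), -0.33 (Csn3, SE 0.16) and -0.07 (Wfdc18, SE 0.14), with a median of -0.19. Wap, of intermediate onset, differed by -0.58 and Lalba, the latest, by -0.74. The intervals of all these genes overlapped. Taken within each array, Lalba minus Csn2 deviated from its mean over the 8 arrays by 0.05, -0.31, 0.66 and 0.81 in control and by -0.84, -0.41, 0.08 and -0.03 in a3a6KO. Controls 1 and 2 fell among the a3a6KO arrays, so the groups overlapped. Csn2 stood 0.58 to 0.98 below the highest value of its array, nearer to the top than Glycam1, so it too lay where array signals can compress, which bears on every difference taken against it. The difference between the groups was -0.60 in this measure (exact permutation p = 0.143, two-sided), so the late gene was not shown to differ from the early one in its response. Wap minus Csn2 differed by -0.45, Lao1 minus Csn2 by -0.65, Pigr minus Csn2 by -0.63, Glycam1 minus Csn2 by -0.05 and Trf minus Csn2 by 0.10, with overlapping groups in each. Csn1s1 was the casein gene whose groups did not overlap (11.86 to 12.08 in control and 11.63 to 11.82 in a3a6KO).

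The sequence just before each gene's start is shown for Wap and Lalba, whose levels moved together, for Pigr, whose groups did not overlap, and for Glycam1 and Csn2, which varied little. Each run holds the 250 bases before the start, on the gene's strand, from RefSeq with the build GRCm38.p6. The windows lie at chr11:6638650-6638899 (minus strand) for Wap, chr15:98482684-98482933 (minus) for Lalba, chr1:130826434-130826683 (plus) for Pigr, chr15:103565082-103565331 (minus) for Glycam1 and chr5:87699426-87699675 (minus) for Csn2. Capitals mark matches to TTCNNNGAA, the palindrome that Stat5 binds, or to TTTAAA or TATAAA, the letters of a TATA box and a variant of it.
Wap: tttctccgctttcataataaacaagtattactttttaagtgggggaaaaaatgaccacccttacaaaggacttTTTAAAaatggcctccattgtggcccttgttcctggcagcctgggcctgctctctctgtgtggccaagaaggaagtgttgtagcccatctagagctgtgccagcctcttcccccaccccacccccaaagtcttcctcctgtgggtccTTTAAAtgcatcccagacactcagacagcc
Lalba: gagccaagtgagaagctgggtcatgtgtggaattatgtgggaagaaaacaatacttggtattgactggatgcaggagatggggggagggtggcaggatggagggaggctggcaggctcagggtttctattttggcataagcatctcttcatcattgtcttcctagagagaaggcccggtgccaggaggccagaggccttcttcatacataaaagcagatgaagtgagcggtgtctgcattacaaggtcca
Pigr: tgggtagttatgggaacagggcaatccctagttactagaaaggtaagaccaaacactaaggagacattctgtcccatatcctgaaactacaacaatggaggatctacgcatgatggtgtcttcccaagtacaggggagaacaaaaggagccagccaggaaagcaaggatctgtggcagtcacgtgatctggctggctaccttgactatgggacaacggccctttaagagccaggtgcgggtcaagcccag
Glycam1: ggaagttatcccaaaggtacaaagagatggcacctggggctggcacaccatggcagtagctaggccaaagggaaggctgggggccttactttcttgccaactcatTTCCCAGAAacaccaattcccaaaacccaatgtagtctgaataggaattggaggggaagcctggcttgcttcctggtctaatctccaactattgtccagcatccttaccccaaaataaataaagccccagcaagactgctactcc
Csn2: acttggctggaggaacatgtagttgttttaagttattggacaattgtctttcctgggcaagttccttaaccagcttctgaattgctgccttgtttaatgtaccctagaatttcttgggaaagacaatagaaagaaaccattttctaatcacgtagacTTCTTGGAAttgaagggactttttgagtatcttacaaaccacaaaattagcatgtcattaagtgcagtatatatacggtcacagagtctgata

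The search covered both strands of the windows of 7 of the 8 members and of Csn2, since Trf had no entry. TTCNNNGAA was found in Glycam1 at position -145 and in Csn2 at -93, counted from the start, and in 7.02% of all 32851 windows of this length. TTTAAA was found in Wap at -177 and -30, and in 12.1% of all windows. TATAAA was in 0 of these windows and in 12.4% of all. AGAACA, a glucocorticoid receptor half-site, was found in Pigr at -114 and in 16.1% of all windows. The windows of Wap and Lalba held none of these motifs in common. Sites farther from the start lie outside these windows.

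Other secreted milk and defence proteins were less uniform. Of 18 measured genes of this list, 11 had a lower mean in a3a6KO and 7 a higher one, with a median difference of -0.06, and 0 passed in limma over all genes (0 at an unadjusted p under 0.05). Cd14, a bacterial lipopolysaccharide co-receptor, differed by -0.56 (SE 0.342), Cst3, the cystatin C gene, by -0.39 (SE 0.342) and Lcn2, the lipocalin that binds bacterial siderophores, by 0.22 (SE 0.193), all above background on every array. Saa3, an acute phase gene, differed by -0.47 below background. The differences of Clu (0.02, SE 0.14), Muc15 (0.03, SE 0.155), B2m (-0.05, SE 0.153) and Lpl (0.03, SE 0.275), genes picked after their values were seen, were smaller than their standard errors.

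Among regulators of milk protein genes, 6 of 14 had a lower mean and 8 a higher one (median 0.08), with 0 called in limma over all genes. Stat5a differed by -0.31 (SE 0.33) and Stat5b by 0.19 (SE 0.22), above background on 3 and 2 arrays, and Prlr was not measured. Socs2, a feedback inhibitor, differed by 0.19 (SE 0.618) and exceeded background on 0 arrays. Cish, a feedback inhibitor that Stat5 induces, was the 1 gene of the 14 with an unadjusted p under 0.05 in limma. Of all genes, 5.13% reached that level. Cish was at 7.91, 8.17, 8.10 and 7.40 in control and at 6.48, 7.00, 5.87 and 7.55 in a3a6KO. Its difference was -1.17 (SE 0.348, exact permutation p = 0.0571), and it exceeded background on 6 arrays. Elf5, the transcription factor of alveolar cells, differed by -0.30 (SE 0.213), Jak2, the kinase of the prolactin receptor, by 0.29 (SE 0.213) and Nr3c1, the glucocorticoid receptor gene, by 0.23 (SE 0.187) on arrays where it lay below background. Nfia, Nfib and Nfix, nuclear factor I genes above background on every array, differed by 0.25, 0.06 and 0.11.

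Of the genes whose products work with the members, 4 of 7 had a lower mean (median -0.02) and 0 passed. B4galt1, the galactosyltransferase that alpha-lactalbumin turns into lactose synthase, was at 8.14, 8.38, 8.49 and 8.38 in control and at 7.26, 6.81, 7.73 and 8.15 in a3a6KO. The lowest control stood 0.01 below the highest a3a6KO array, and the difference was -0.86 (SE 0.275, exact permutation p = 0.0571, limma adjusted p = 0.944). Its lowest array, a3a6KO 2, was not the lowest in Lalba, which was a3a6KO 1. Lrp1, a receptor that takes up lactoferrin, differed by -0.57 and exceeded background on 0 arrays.

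Basal cells form the contractile outer layer of the epithelium. All 10 of their markers had a lower mean in a3a6KO (median -0.65), but 0 passed in limma over all genes (smallest adjusted p = 0.944). At an unadjusted limma p under 0.05, 4 of the 10 were lower (Trp63, Krt5, Myl9 and Krt14), against 2.73% of all genes. Groups did not overlap in 1 of the 10, Trp63, at 5.24 to 8.37 in control and 3.18 to 5.12 in a3a6KO. The Trp63 difference was -2.43 (exact permutation p = 0.0286). Trp63 exceeded background on 1 array, so the size of its difference is uncertain. The groups overlapped in the list as a whole. The log2 of the summed levels of the 10 markers was 10.1 to 12.0 in control and 9.37 to 11.4 in a3a6KO. Krt17 and Oxtr exceeded background on 0 arrays and Krt14 and Acta2 on all 8. The mean deviation of the basal list was -0.30, 1.07, -0.15 and 1.40 on the control arrays and -0.90, -1.08, 0.69 and -0.73 on those of a3a6KO. Control 4 was the highest array in this list, as in Wap and Lalba, and a3a6KO 1 and 2 were the lowest. With the mean of Krt5, Krt14 and Krt17 as a covariate, the differences were -0.39 for Wap, -0.58 for Lalba, -0.81 for Pigr, -0.85 for Lao1, -1.04 for Ltf, -0.65 for Cel, -0.11 for Glycam1 and 0.02 for Trf, with no member past the threshold. That covariate itself differed between the groups, so the fit cannot separate it from the genotype. It also ordered the arrays otherwise than the basal list, with control 3 at 1.35, control 4 at 0.40 and a3a6KO 3 at -0.10. The fit is therefore no adjustment for the basal list as a whole.

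Luminal markers had the opposite sign. All 7 had a higher mean in a3a6KO, by 0.08 to 0.24 (median 0.13), with overlapping groups in each, and 0 passed. The largest difference, of Cldn3, was 0.24 (SE 0.202). Those of Krt8 (0.10, SE 0.163) and Krt18 (0.08, SE 0.158) were smaller than their standard errors. Relative to the mean of Krt8 and Krt18 on the same array, the median difference of the 8 secreted protein genes was -0.76. Most leukocyte markers lay below background, with Ptprc on control 3 and S100a8 on 3 arrays as the exceptions. Of the macrophage markers 6 of 6, of the lymphocyte and plasma cell markers 4 of 5 and of the neutrophil markers 5 of 6 exceeded background on 0 arrays. The log2 of the summed macrophage markers was 6.10 to 7.06 in control and 6.05 to 6.41 in a3a6KO. For the neutrophil markers it was 6.60 to 8.20 and 6.02 to 8.05, and for the lymphocyte and plasma cell markers 5.35 to 7.37 and 5.30 to 5.70. The endothelial list deviated most on control 4 (1.57) and a3a6KO 3 (1.10), and the part of these cells in the member values was not tested.

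**Figure D4:**
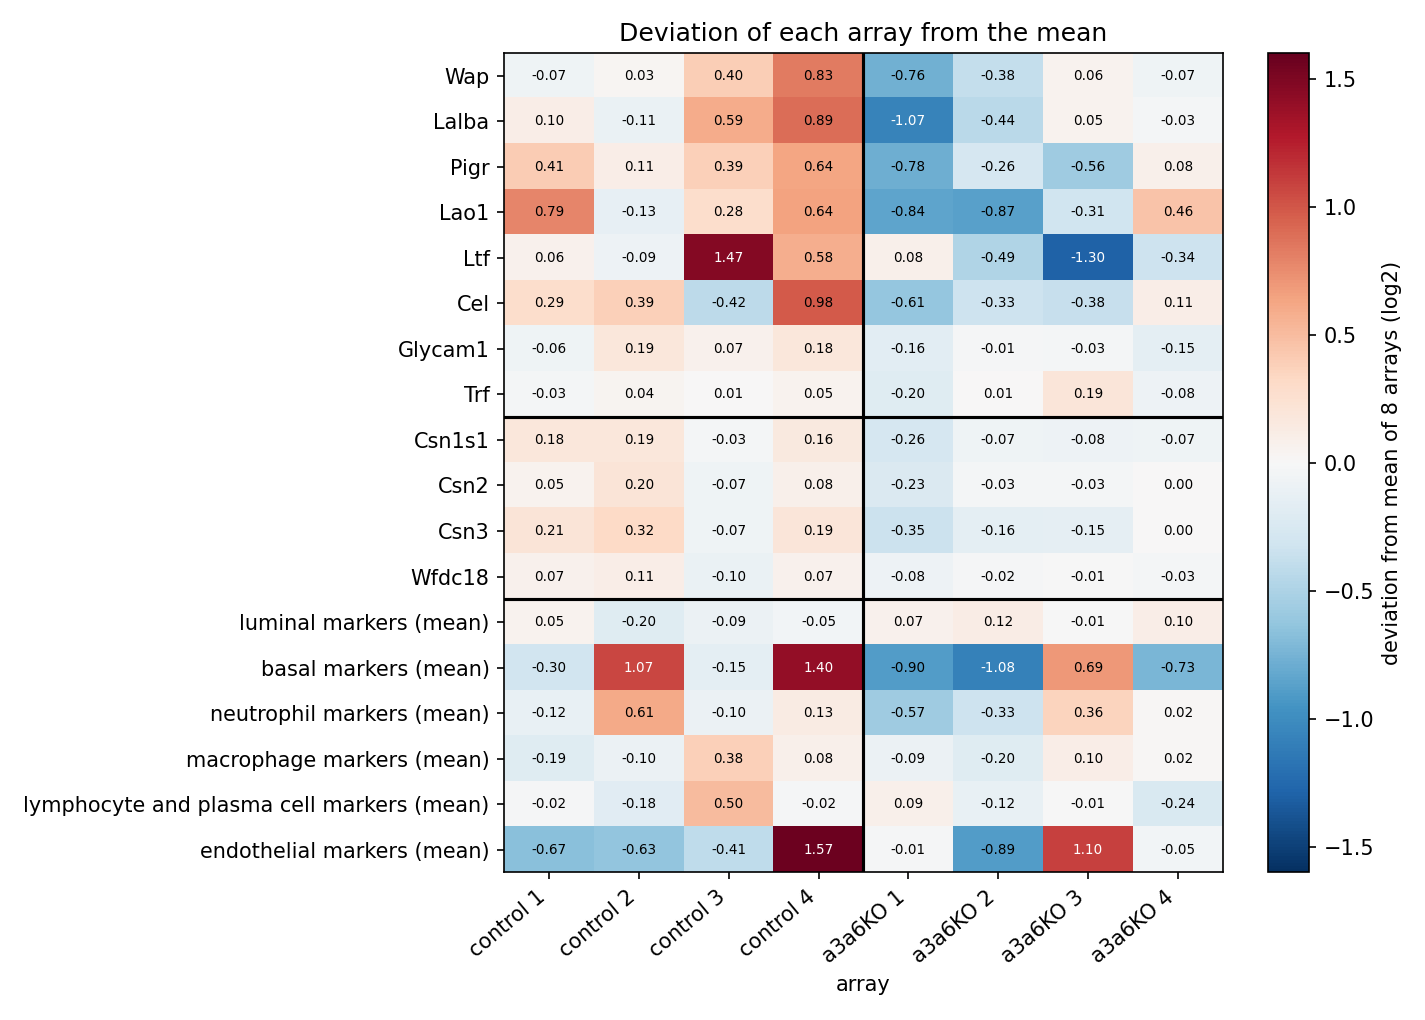
Deviation of each array from the mean of the 8 arrays (log2, colour and printed value) for secreted milk protein genes, casein genes with Wfdc18, and the mean of marker lists. Wap and Lalba share both ends of their order of arrays, with control 4 highest and a3a6KO 1 lowest, while the casein genes shown (Csn1s1, Csn2 and Csn3) and Wfdc18 stay within 0.35 of their means and the basal list is highest on control 4.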

How the data were processed

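Expression was measured on Affymetrix arrays in sorted luminal mammary cells, 4 control and 4 a3a6KO samples, grouped by the cell subtype label. The deposited values are log2 per probe set, made by the authors with Affymetrix Expression Console and RMA, per the submitters' processing notes, with no versions stated. RMA corrects background, makes the arrays alike by quantiles and summarizes probes, so a shift shared by most genes is removed. The values were used as deposited. The number of arrays limits the precision.

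Of 28846 probe sets, 19572 had 1 gene symbol in the platform annotation, 0 had several and 9274 had none. Where 55 genes had several sets, the set with the highest mean was kept, which left 19505 genes. Each measured member had 1 set. The genome build of the probe sets is not given in the sources used here, so they carry no coordinates. No arrays held identical values.

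Groups were compared by a two-sided linear model with group as its term, using limma 3.58.1 (R 4.3.3), fitted over all genes with Benjamini-Hochberg adjustment. The fit was tested on simulated data. Single genes were also compared by exact permutation over the 70 assignments of samples to groups. The members and the lists of genes were chosen with earlier results of these data known. The text names all members, up to 4 list genes of smallest p, list genes set beside a member, and the 3 genes of highest r with a member above background on every array. Named in addition, after their values were seen, were Ptprc, Cited1, Clu, Muc15, B2m, Lpl, Stat5a, Stat5b, Socs2, Nfia, Nfib, Nfix, Acta2 and Fabp4. Same-numbered samples did not deviate together (correlations of -0.061 to 0.039), so the numbers were not taken as pairs. Alternatives left out each sample, used the replicate number as a block, other probe set rules, centring, filters, weights and covariates.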

Additional observations from a re-analysis of the deposited data

How the results depend on the processing

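All 8 measured genes kept a lower mean in a3a6KO when probe sets were averaged, when arrays were centred on their medians and when levels were set relative to Krt8 and Krt18, with medians of -0.68, -0.65 and -0.76. When each sample was left out in turn, 7 to 8 of the genes were lower, with a median of -0.80 to -0.49, and Lalba minus Csn2 ranged from -0.81 to -0.42 (exact permutation p of 0.114 to 0.286). Trf alone turned sign in the refits, to 0.0225 without a3a6KO 1 (-0.11 to 0.0225 over the samples left out) and to 0.022 with the basal keratin covariate, and the other members kept theirs in every refit. Over 126 refits of single members, 0 passed the threshold (smallest adjusted p = 0.756). The count of genes past the threshold in limma was 0 in every alternative but the basal keratin covariate, which called 1, Irgm1, below background on every array. An unadjusted p under 0.05 was reached by 1000 genes, and by 929 to 1061 genes with a sample left out. With the replicate block the count of called genes was 0 as well (smallest adjusted p = 0.942, 1003 genes at an unadjusted p under 0.05), and control 1 to 4 did not each correlate best with the same-numbered a3a6KO sample. With dim genes left out, Ltf and Cel could not be fitted. Signal over background limits both, and the cause of the other shifts was not tested. The median SE of a difference over all genes was 0.234.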
